A study of Mus musculus with 18 samples.

Results

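The mRNAs that went on decaying in macrophages without tristetraprolin (TTP, encoded by Zfp36) were described from 6 of the 18 arrays of the series, 3 of TTP-/- (KO) cells at 90 min and 3 of KO cells at 0 min. The arrays were chosen by their genotype and time labels, and all 10258 genes with a measurable signal were tested. All 18 arrays carried total RNA from macrophages grown from C57Bl/6 bone marrow with M-CSF, and all cells had received lipopolysaccharide (LPS), a bacterial activator of macrophages, for 3 h. Fresh medium then brought actinomycin D, which stops transcription, together with the p38 kinase inhibitor SB203580, and RNA was taken 0, 45 or 90 min later. The groups were KO at 90 min, at 45 min and at 0 min, and wild type (WT) at the same 3 times, with 3 arrays each. Cells at 0 min had LPS but no exposure to either drug, so the effects of stopped transcription and of p38 inhibition over time cannot be told apart. The labels do not say how many animals or cultures the replicates came from.

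TTP is a zinc finger protein that binds AU-rich elements in the 3′ untranslated regions of mRNAs for cytokines and other inflammatory proteins, and recruits the deadenylases that start their destruction. LPS-activated p38 restrains this activity, and the series used the inhibitor to make TTP-driven decay easier to see. Many mRNAs of an inflammatory response, such as those of immediate early genes and of feedback inhibitors, are also short-lived through other RNA-binding proteins and through their codon and sequence content. The comparison of KO at 90 min with KO at 0 min asks which mRNAs are lost when TTP is absent.

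Values are log2 intensities, and a change is the log2 value at 90 min minus that at 0 min. Since the arrays were brought to a common scale, a change, and a percentage of signal left, is relative to the other mRNAs of the array. All 13 macrophage markers had KO 0 min signals above the signal limit, a log2 intensity of 3.03 (an intensity of 8.16), and 12 exceeded it by more than 2. None of the 6 T cell and 6 B cell markers on the array reached the limit, while 3 of 10 neutrophil, 1 of 7 natural killer cell, 2 of 7 dendritic cell, 6 of 9 fibroblast and 1 of 6 erythroid and platelet markers did. Of the 28 tested markers 0 passed in limma for a change in KO, and at an unadjusted p below 0.05 1 dendritic cell marker was lower and 3 fibroblast markers were higher. Over all genes tested, 390 of 10258 were lower and 160 higher at that p. The summed intensity of the 6 fibroblast markers above the limit was 89.8 to 107 in the KO 90 min arrays, against 76.3 to 83.4 in the KO 0 min arrays, and its part in the results was not tested. The 6 arrays had median intensities of 7.49 to 7.94, and arrays of the same group correlated at 0.963 to 0.989 across genes.

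One replicate of the KO time course stood against its labels. Among the 125 genes that fell in WT over 90 min, a list chosen without any KO value in the contrast, the library labelled KO 90 min was below the one labelled KO 45 min for 101 genes in replicate 1 and for 107 in replicate 3, but for only 8 in replicate 2. The median difference between KO 90 min and KO 45 min over these genes was -0.39 in replicate 1, 0.54 in replicate 2 and -0.47 in replicate 3. In WT, whose 0 and 90 min values chose the list, 90 min lay below 45 min for 121, 123 and 112 genes in replicates 1, 2 and 3. Over all genes tested the shares in KO were 47.8%, 41.2% and 44.4%. The labels were kept as deposited, and whether the 45 and 90 min libraries of KO replicate 2 were exchanged was not tested. Results are given with all arrays and, as an addition made after this order was seen, with both of these libraries left out, which leaves 2 KO arrays at 90 min against 3 at 0 min. Over the 125 genes the median KO change from 0 to 90 min was -0.385 in replicate 2, against -1.045 in replicate 1 and -1.002 in replicate 3. Leaving the replicate 2 libraries out therefore deepens such falls by the choice itself, and calls gained in that fit are no separate support.

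**Figure D1:**
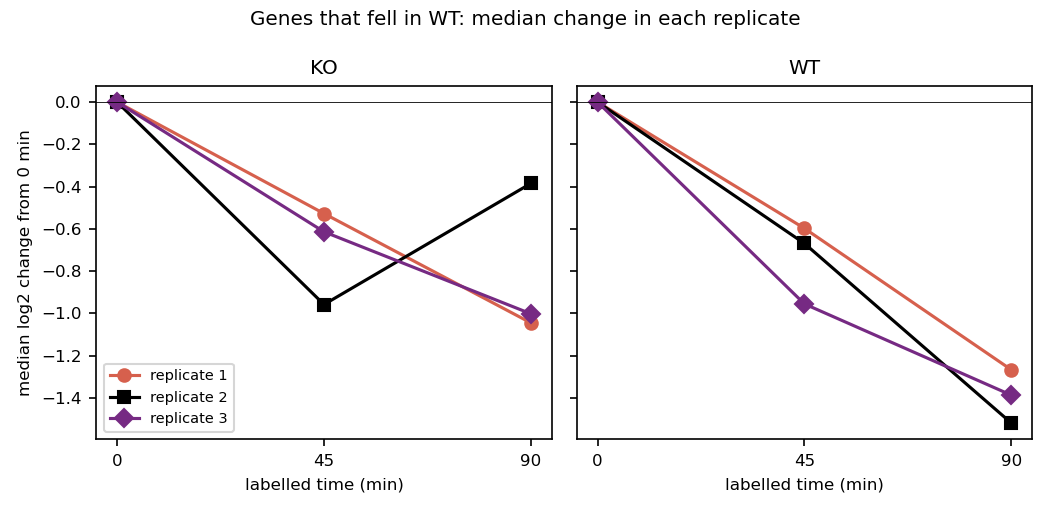
Median log2 change from 0 min (vertical axis) at the labelled times of 0, 45 and 90 min (horizontal axis) over the 125 genes that fell in WT, with 1 line per replicate, KO in the left panel and WT in the right. In KO replicate 2 the median was -0.96 at 45 min and -0.39 at 90 min, whereas in the other 5 courses the 90 min value was the lower one.

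In KO macrophages 23 mRNAs fell over 90 min, and the 7 that fell the most were those of the phosphatase gene Dusp2, the cytokine signalling inhibitor Socs3, the NF-kB inhibitor Tnfaip3, the kinase gene Plk2, Gdap10, the lectin-like gene Clec2d and the linker histone gene H1f5. They kept between 14.3% and 54.5% of their KO 0 min signal. Of the 23, 21 fell at least 2-fold and 7 at least 4-fold. No mRNA rose in limma after Benjamini-Hochberg adjustment at 0.05, against 160 with a higher and 390 with a lower signal at an unadjusted p below 0.05. The 23 are 0.224% of all genes tested (limma). In every one of them the 3 KO 90 min arrays lay below the 3 KO 0 min arrays, which held for 6.22% of all genes, and the change was negative in all 3 same-numbered pairs, which held for 16.5% of all genes. The 23 were called on these same arrays, so this describes them and is no separate support.

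With the 2 KO libraries of replicate 2 left out, 71 mRNAs fell and 0 rose (limma, 58 higher at an unadjusted p below 0.05), or 0.692% lower of all genes tested. All 23 were among the 71, and all 23 then fell at least 2-fold, 12 of them at least 4-fold, with 11.3% to 49.8% of the signal left. The choice of the libraries left out favours such deeper falls, so this is no separate support for the 23. Over all arrays the median change of the 23 was -1.79 in replicate 1, -1.01 in replicate 2 and -2.24 in replicate 3, and the library labelled KO 90 min replicate 2 was the highest of its group for 21 of them. Same-numbered KO arrays at 90 and 0 min deviated together from their group means, whereas in WT the correlations were 0.424, -0.287 and -0.0236 for replicates 1, 2 and 3. With the replicate number as a block over all 18 arrays, 56 mRNAs fell (0.546% of all genes tested) and 1 rose, Gtpbp2 (0.00975%). With the replicate block in a fit of the 6 KO arrays alone, 286 fell (2.79%) and 57 rose (0.556%), against 1 that fell without the block.

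**Figure D2:**
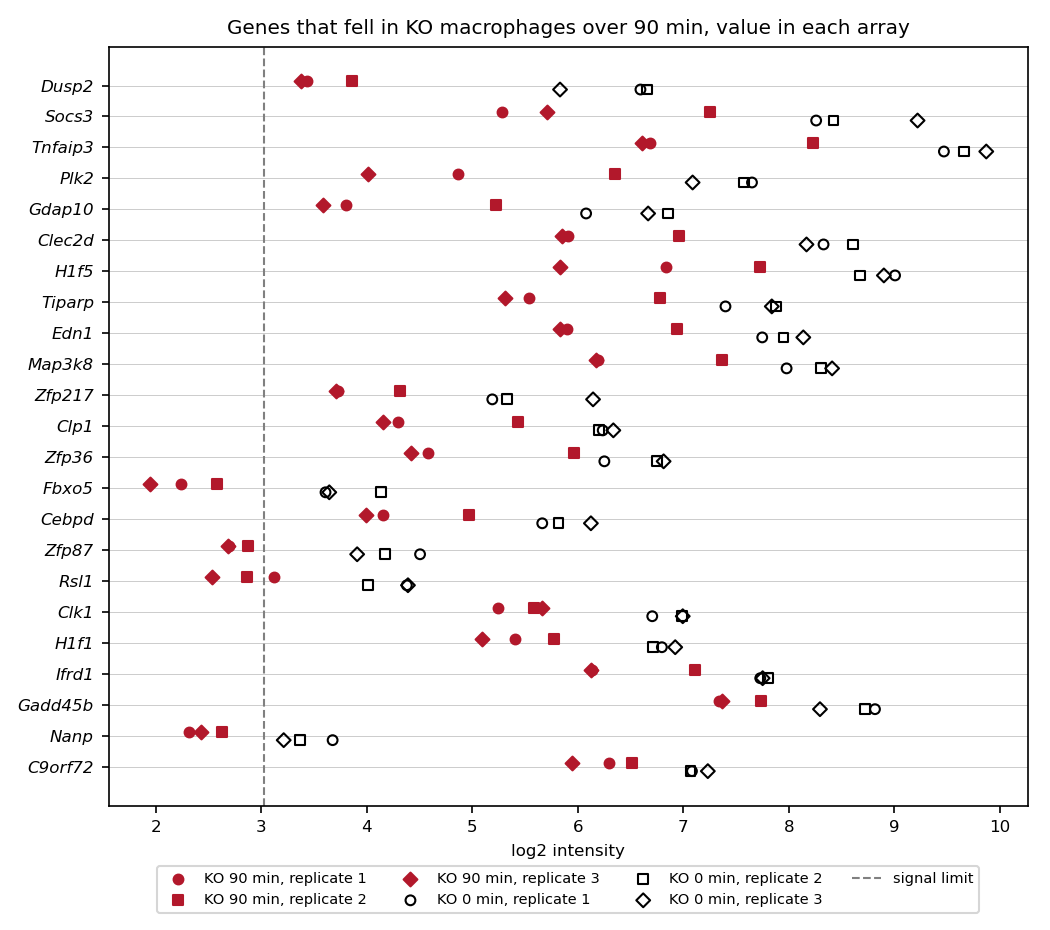
Log2 intensity (horizontal axis) of the 23 genes that fell in KO macrophages, with filled symbols for the 3 arrays at KO 90 min, open symbols for the 3 at KO 0 min, one shape per replicate number and a dashed line at the signal limit of 3.03. The groups do not overlap for any gene, and replicate 2 (squares) is the highest of the KO 90 min arrays for 21 of the 23.

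The 3 genes of the 23 with the deepest falls, Dusp2, Socs3 and Tnfaip3, are known feedback inhibitors. Dusp2, which encodes a phosphatase that switches off MAP kinases in activated immune cells, lies on chromosome 2 from 127336159 to 127338377 (GRCm38.p6). Its log2 intensity was 3.43, 3.86 and 3.37 in the KO 90 min arrays, against 6.59, 6.66 and 5.83 in the KO 0 min arrays. All KO 90 min arrays stood far below all KO 0 min arrays, and within 1 of the signal limit, so background bounds the fall. The change was -2.81 ± 0.29 (SE, n = 3 arrays per group), with a limma adjusted p of 0.000236, and -2.96 without the 2 libraries of replicate 2. This call held in each of the 18 omissions of a single array.

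Socs3, which blocks signalling from cytokine receptors of the gp130 type, had 5.28, 7.25 and 5.71 in the KO 90 min arrays, against 8.26, 8.42 and 9.22 in the KO 0 min arrays. The groups were apart, but the library labelled KO 90 min replicate 2 stood more than 1 log2 unit above the other two. The change was -2.55 ± 0.49 (limma adjusted p 0.0411), and -3.14 with an adjusted p of 0.000168 in limma without the 2 libraries of replicate 2. Tnfaip3, which encodes the ubiquitin-editing enzyme A20 that shuts down NF-kB, had 6.69, 8.23 and 6.61 in the KO 90 min arrays, against 9.47, 9.66 and 9.87 in the KO 0 min arrays. Here too replicate 2 was the high one at 90 min, and the change was -2.49 ± 0.39 (limma adjusted p 0.0110), or -3.02 without the 2 libraries. For this and the following lists, the share of all genes tested that fell over all arrays was 0.224%. A gene was tested if any group mean reached the signal limit, so a gene near it could enter through a high 0 min group. Such entry favours a lower signal at 90 min, and the shares over all genes tested are not matched for intensity. Of 16 NF-kB feedback inhibitors, Tnfaip3 alone fell, with a list median of -0.24 against 0.02 over all genes tested. Of 7 members of the SOCS family, Socs3 alone fell, and all 7 had a lower signal (median -0.60), against 46.5% of all genes tested. Of 14 MAP kinase phosphatases and Sprouty genes, Dusp2 alone fell, and 13 had a lower signal (median -0.31), against the same 46.5% of all genes.

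Dusp1 and Nfkbia, with related roles, had changes of similar size and larger errors. Dusp1, the MAP kinase phosphatase that LPS induces most broadly, had 4.60, 5.92 and 5.23 in the KO 90 min arrays, against 7.47, 7.73 and 9.55 in the KO 0 min arrays. The KO 0 min values spread over 2 log2 units, and the change of -3.0 ± 0.67 did not pass without a block (limma adjusted p 0.0976). It passed with the replicate block (limma adjusted p 0.00624) and without the 2 libraries of replicate 2 (-3.33, adjusted p 0.0186). Nfkbia, which encodes the inhibitor that holds NF-kB in the cytoplasm, had 7.21, 8.97 and 7.53 in the KO 90 min arrays, against 9.92, 10.04 and 10.41 in the KO 0 min arrays. Its change was -2.22 ± 0.49 (limma adjusted p 0.0954 without a block and 0.0324 with it), and -2.75 without the 2 libraries (adjusted p 0.000413). Nfkbiz, which encodes a nuclear regulator of NF-kB, had -0.97 ± 0.23 and did not pass with or without the block, but passed at -1.25 without the 2 libraries (limma adjusted p 0.00697). With those libraries left out 3 of the 16 NF-kB feedback inhibitors and 2 of the 14 phosphatases and Sprouty genes fell, against 0.692% of all genes tested.

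Kinases and immediate early genes, whose induction needs no newly made protein, were also among the 23. Plk2, a polo-like kinase gene, had 4.87, 6.35 and 4.02 in the KO 90 min arrays, against 7.65, 7.58 and 7.09 in the KO 0 min arrays. The spread at 90 min exceeded that at 0 min, with SDs of 1.18 and 0.31 (n = 3 each). The change was -2.36 ± 0.43 (limma adjusted p 0.0318), and -3.0 without the 2 libraries of replicate 2. Tiparp, which encodes a mono-ADP-ribosyltransferase that represses the aryl hydrocarbon receptor, fell by 1.83 ± 0.36 on the log2 scale. Map3k8, the kinase that links Toll-like receptors to the ERK pathway, fell by 1.65 ± 0.29.

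Of 20 immediate early genes tested, Plk2 and Tiparp fell, 4 fell with the replicate block and 5 without the 2 libraries of replicate 2. Of all genes tested, 0.224%, 0.546% and 0.692% fell in these fits, in that order. The list median was -0.56, and 17 of 20 had a lower signal, against 46.5% of all genes tested. Junb, a subunit of the AP-1 transcription factor, had 4.20, 5.69 and 4.65 in the KO 90 min arrays, against 5.75, 6.26 and 6.76 in the KO 0 min arrays. The change of -1.41 ± 0.38 did not pass over all arrays (limma adjusted p 0.242), and passed at -1.83 without the 2 libraries (adjusted p 0.00521). Ier3, an immediate early gene that is also a reported TTP target, had -1.32 ± 0.38 and did not pass in either case.

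Transcription factors and their regulators also contributed. Cebpd, a C/EBP family factor induced in activated macrophages, fell by 1.5 ± 0.24, and was the member of 22 macrophage transcription factors that passed over all arrays (median -0.23). Irf1, an interferon regulatory factor, had 7.20, 8.80 and 5.70 in the KO 90 min arrays, against 9.38, 9.57 and 8.32 in the KO 0 min arrays. These groups overlapped, and the change of -1.85 ± 0.57 did not pass (limma adjusted p 0.411), whereas it was -2.64 without the 2 libraries of replicate 2 (adjusted p 0.0123). Nfil3, a basic leucine zipper factor, was -1.21 ± 0.31 with all arrays and passed at -1.55 without the 2 libraries (limma adjusted p 0.0119).

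Zinc finger genes mostly had a lower signal, and few passed the test. Zfp217, a transcriptional regulator, fell by 1.64 ± 0.27, and Zfp87 by 1.44 ± 0.26. With Zfp36, which the name pattern includes, 3 of 140 numbered zinc finger genes fell, and 115 of the 140 had a lower signal, against 46.5% of all genes tested, with a median of -0.27. On the array 186 of 312 genes with such names were below the signal limit at KO 0 min. How far entry through a high 0 min group adds to the 115 was not tested. Rsl1, which encodes a KRAB zinc finger repressor and bears no such name, fell by 1.42 ± 0.22. The KO 90 min signals of Zfp87 (2.75) and Rsl1 (2.84) were below the signal limit, as were those of Fbxo5 (2.26) and Nanp (2.46), so these 4 falls are bounded by background. Zinc finger genes of this kind have close relatives, and cross-hybridisation between copies was not tested.

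Histone mRNAs, most of which end in a stem-loop in place of a poly(A) tail and have their own decay route, gave the lowest list median, -0.71 over the 22 genes that a name pattern found, with 20 of 22 lower against 46.5% of all genes tested. On the array 17 of 37 such genes were below the signal limit at KO 0 min. How far entry through a high 0 min group adds to the 20 was not tested. H1f5 had 6.84, 7.73 and 5.83 in the KO 90 min arrays, against 9.01, 8.68 and 8.90 in the KO 0 min arrays. All 3 pairs were lower, and the change was -2.06 ± 0.33 (limma adjusted p 0.0110), or -2.52 without the 2 libraries of replicate 2. H1f1 fell by 1.39 ± 0.26. These were the 2 of the 22 past the threshold, against 4 with the replicate block, where H2bc3 (-1.62) and H2bc9 (-1.14) were added, and 6 without the 2 libraries. Of all genes tested, 0.224%, 0.546% and 0.692% fell in these fits, in that order. H2aw, a histone gene that the pattern missed and that is named after its values were seen, was at -1.23 and passed with the block (limma adjusted p 0.00697) and without the 2 libraries (-1.53, limma adjusted p 0.0253). In single pairs the list median was -1.13, -0.53 and -0.56 in replicates 1, 2 and 3. Core histone genes exist in near-identical copies, so the signal of 1 of them may include its relatives.

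Other genes of the 23 belonged to varied roles. Clec2d, a C-type lectin-like ligand of an inhibitory natural killer cell receptor, lies on chromosome 6 from 129180615 to 129186535 (GRCm38.p6). It had 5.91, 6.96 and 5.85 in the KO 90 min arrays, against 8.33, 8.60 and 8.17 in the KO 0 min arrays. The change was -2.13 ± 0.28 (limma adjusted p 0.00398), or -2.49 without the 2 libraries, and the call held in each of the 18 omissions of a single array. Edn1, which encodes the vasoconstrictor endothelin 1, fell by 1.72 ± 0.26, and the stress-induced gene Gadd45b fell by 1.13 ± 0.18. Gadd45b alone fell among 17 survival and apoptosis regulators (median -0.21), and the anti-apoptotic Mcl1 was at -0.88 ± 0.22, passing at -1.13 without the 2 libraries (limma adjusted p 0.0182).

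Genes of RNA handling were few. Clp1, an RNA kinase of the 3′ end cleavage machinery, fell by 1.63 ± 0.32, and Clk1, which phosphorylates splicing factors, fell by 1.4 ± 0.26. The transcriptional coregulator gene Ifrd1 fell by 1.31 ± 0.25, and Fbxo5, an inhibitor of the anaphase-promoting complex, fell by 1.54 ± 0.27. Nanp, an enzyme gene of sialic acid synthesis, fell by 0.96 ± 0.19, C9orf72, which acts in membrane traffic and autophagy, by 0.88 ± 0.18, and Gdap10 by 2.33 ± 0.43. Of 36 genes of the deadenylation and mRNA decay machinery 0 passed in limma, and the list median was -0.09. At an unadjusted p below 0.05, 2 were lower and 1 higher, against 390 and 160 of the 10258 genes tested. The largest values were 0.58 ± 0.29 for Upf1, the helicase of nonsense-mediated decay, and 0.53 ± 0.19 for the decapping cofactor gene Edc4.

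Further lists had lower medians with 0 members past the threshold in limma. Over all genes tested, 390 of 10258 were lower at an unadjusted p below 0.05. Toll-like receptors and adaptors had a median of -0.31 over 16 genes (4 lower at an unadjusted p below 0.05), with the adaptor genes Ticam1 at -0.64 ± 0.23 and Traf6 at -0.63 ± 0.22. The antiproliferative BTG and TOB family had -0.40 over 4 genes (0 at an unadjusted p below 0.05), and cell cycle and mitosis genes had -0.12 over 31 genes (4 lower at an unadjusted p below 0.05), led by Ccnf at -0.71 ± 0.26. Among 17 p53 targets Plk2 alone passed (median -0.14), and Mdm2, the ubiquitin ligase of p53, was at -0.65 ± 0.26. In the SOCS family Socs1 was at -1.0 ± 0.31 and Cish at -0.81 ± 0.46, neither past the threshold with all arrays or without the 2 libraries of replicate 2.

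The 23 genes were short in the genome. Their median span from first to last base was 6.31 kb, against 21.7 kb for the 10242 tested genes with a span in RefSeq (GRCm38.p6). They lay on 12 chromosomes. This is given as a description of the 23.

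The replicate block added 34 genes, 33 of them lower and 29 with groups that did not overlap, which held for 11.9% of all genes tested in either direction. Besides Dusp1 and Nfkbia the largest were Trim13, a ubiquitin ligase gene, at -1.99, Tagap at -1.83, and the interferon-induced GTPase gene Mx2 at -1.67. Rnd3 was at -1.56, and Tnfsf9, the ligand of a T cell costimulatory receptor, was at -1.38. Ptger4, a prostaglandin E2 receptor gene, was at -1.13. Of these, Trim13, Tagap, Rnd3, Tnfsf9 and Ptger4 also passed in limma with the 2 libraries of replicate 2 left out, at -2.57, -2.44, -1.96, -1.65 and -1.36, and Mx2 did not (adjusted p 0.247). Other genes that the block added included the cell cycle regulator gene Sertad3 at -1.20, the signalling adaptor Errfi1 at -1.22, the pseudokinase gene Trib1 at -1.21 and the immediate early gene Ier2 at -1.12, and of these 4 Sertad3 passed without the 2 libraries (-1.55, limma adjusted p 0.000451). In all, 48 genes beyond the 23 fell without those 2 libraries. Of the 48, 15 were also called with the replicate block, with which 0.546% of all genes tested fell. Of the same 48, 36 had fallen in WT, against 1.22% of all genes tested. The fit with the block and the fit without the libraries share KO arrays, so their overlap is no separate support. The WT calls and the fit without the libraries share arrays in the estimate of the spread, so the 36 are no separate support either.

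**Figure D3:**
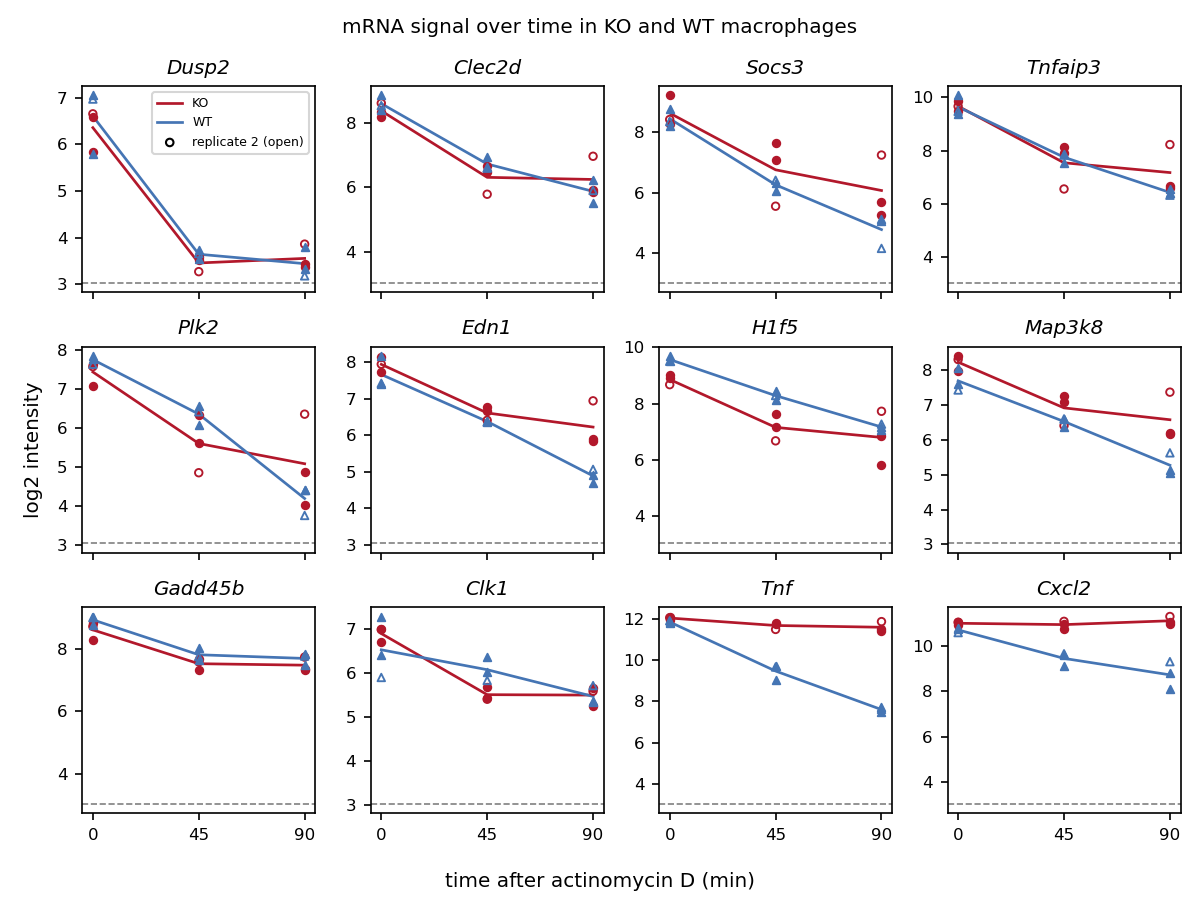
Log2 intensity (vertical axes, scales differ) against time after actinomycin D in min (horizontal axes) for 12 genes in KO (red circles) and WT (blue triangles), with 1 symbol per array, open for replicate 2, lines through the group means and a dashed line at the signal limit of 3.03. For Socs3, Tnfaip3 and Plk2 the open KO symbol is the lowest at 45 min and the highest at 90 min, while KO Tnf stays near a log2 intensity of 12.

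The time at which the signal was lost depended on replicate 2. With all arrays, the 23 genes had a median of 87.7% of their 90 min fall by 45 min, with a range of 61.4% to 105%. In replicates 1 and 3 alone, at each of the 3 times, the median was 62.9%, with a range of 42.4% to 99.5%. Zfp87 and Rsl1 were at the upper end with 99.5% and 97.0%, and Dusp2 had 94.7%. These 3 genes were near or below the signal limit at 90 min. Socs3 (42.4%), H1f1 (45.0%) and Plk2 (47.6%) were at the lower end. No gene passed between 45 and 90 min in KO by limma, with all arrays (92 lower and 47 higher at an unadjusted p below 0.05) or without the 2 libraries of replicate 2 (161 lower and 58 higher).

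Relative half-lives were taken from a straight line over the 3 times for genes that stayed above the signal limit at 45 min. Over the 9 KO arrays the half-life was 35.2 min for Socs3 (95% interval 25.1 to 59.2), 36.1 min for Tnfaip3 (26.4 to 57.2), 38.1 min for Plk2 (27.2 to 64.0), 43.7 min for H1f5 (32.1 to 68.3) and 52.3 min for Edn1 (39.3 to 78.2). Without the 2 libraries of replicate 2 it was 29.0 min for Socs3 (23.7 to 37.4), 29.7 min for Tnfaip3 (25.8 to 34.9), 30.1 min for Plk2 (24.9 to 38.1), 35.3 min for H1f5 (29.5 to 43.9) and 42.8 min for Edn1 (35.3 to 54.2). In either case the intervals of neighbouring genes overlapped.

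Reported TTP targets had a median change of -0.18 in KO, or -0.12 without the 2 libraries of replicate 2. A lower signal was seen in 15 of 20, against 46.5% of all genes tested. At an unadjusted p below 0.05, 6 of 20 were lower, against 390 of the 10258 genes tested. After adjustment 1 of 20 fell in limma. That gene was Zfp36, the targeted gene itself. It had 4.58, 5.97 and 4.42 in the KO 90 min arrays, against 6.25, 6.75 and 6.81 in the KO 0 min arrays, a change of -1.61 ± 0.32 (limma adjusted p 0.0475). The array reports a signal for Zfp36 in KO cells, and the part of the gene that was deleted is not given in the sources used here, so the signal checks no label.

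Tnf, which encodes the cytokine TNF, had 11.49, 11.85 and 11.40 in the KO 90 min arrays, against 11.94, 12.04 and 12.10 in the KO 0 min arrays. The KO 90 min arrays were all lower, but the change of -0.45 ± 0.18 did not pass (limma adjusted p 0.786), and 73.4% of the signal was left. Cxcl2, a neutrophil chemoattractant gene, had 11.06, 11.30 and 10.97 at KO 90 min, against 11.05, 11.04 and 10.90 at KO 0 min, and the groups differed by 0.11 ± 0.23. Other cytokine and chemokine targets did not pass in KO either. Csf2 was at -0.94 ± 0.32, Il10 at -0.51 ± 0.66, Cxcl1 at -0.18 ± 0.35 and Cxcl3, above 0, at 0.36 ± 0.28. Fos, an AP-1 subunit on the same list, was at -0.91 ± 0.27. Of 20 cytokine genes 0 passed in KO by limma, with a median of -0.12. At an unadjusted p below 0.05, 3 of them were lower, against 390 of the 10258 genes tested. Of 19 chemokine genes 0 passed (0 at an unadjusted p below 0.05), with a median of -0.02.

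The falls of the 23 mRNAs in KO were set against those in WT. Of the 23, 19 also fell in WT, which is 82.6% of the 23 and 15.2% of the 125 genes that fell there (1.22% of all genes tested). The other 4 were Clk1, Fbxo5, Nanp and C9orf72, with WT changes of -1.06, -0.99, -0.43 and -0.57. The KO and WT calls used 1 shared estimate of each gene's spread, so their overlap is no separate support. The median change of the 23 was -1.63 in KO and -1.92 in WT. The fall was larger in WT for 16 of the 23, and for 12 of the 23 without the 2 KO libraries of replicate 2, where 56.4% and 53.5% of all genes had a difference of that sign. None of the 23 passed the test of the difference between KO and WT changes in limma, and 2 had an unadjusted p below 0.05, Zfp36 and Edn1.

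The intervals show how large a difference the arrays allow. The KO minus WT difference was 0.36 for Dusp2 (95% interval -0.50 to 1.22), 0.59 for Clec2d (-0.25 to 1.43), 1.11 for Socs3 (-0.35 to 2.56), 0.72 for Tnfaip3 (-0.45 to 1.88) and 1.06 for Edn1 (0.30 to 1.83). For Zfp36 it was 1.91 (0.96 to 2.86, limma adjusted p 0.758). A log2 difference of 1 lay within the intervals of all 6 genes. Of the 125 genes that fell in WT, 121 had a lower signal in KO, against 46.5% of all genes tested, and their median change was -0.85 in KO against -1.34 in WT, or -1.12 in KO without the 2 libraries of replicate 2.

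In the same test Tnf and Cxcl2 were the genes past the threshold (0.0195% of all genes tested), both with a positive KO minus WT difference. Tnf had a smaller loss in KO, and Cxcl2 had no loss there (0.11). Of the 20 reported TTP targets, 18 had a positive difference, with and without the 2 libraries of replicate 2, and some of these had no loss in KO. A difference of that sign was seen in 56.4% and 53.5% of all genes tested. The list was written with earlier results of these data known and includes Tnf and Cxcl2. Its median was -0.18 in KO against -1.14 in WT.

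**Figure D4:**
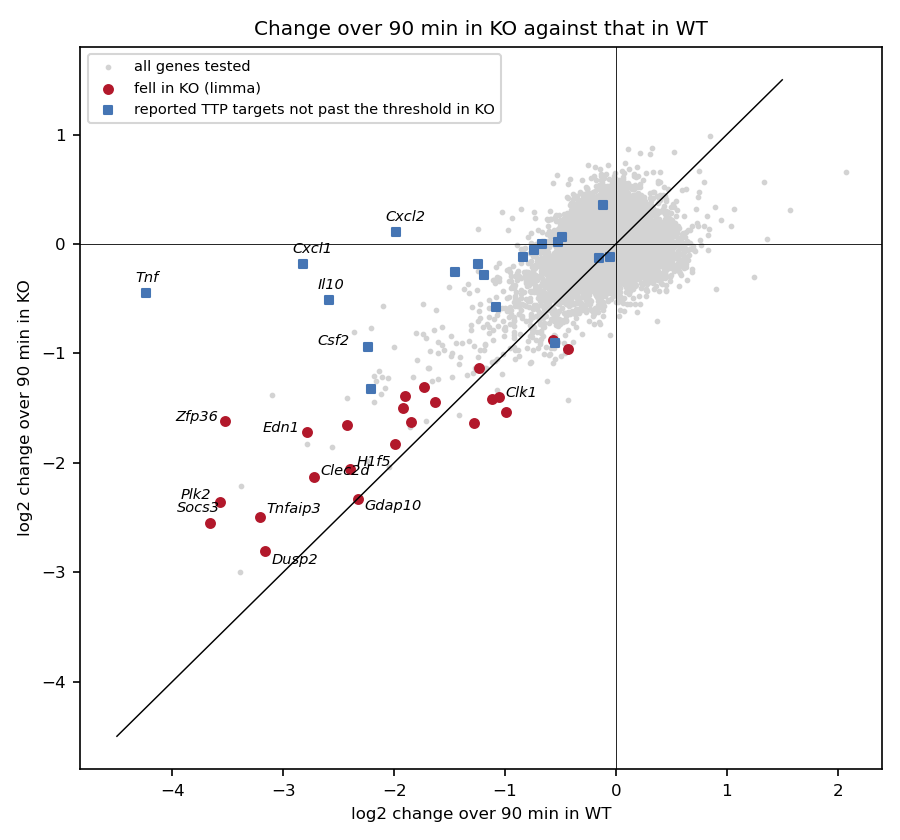
Log2 change over 90 min in KO (vertical axis) against that in WT (horizontal axis) for all 10258 genes tested (grey), the 23 that fell in KO (red) and the reported TTP targets that did not pass in KO (blue squares), with a line of equal change. Most red points lie near the line with a larger loss in WT for 16 of the 23, and Tnf and Cxcl2 lie far above it.

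At the other end, no mRNA was 2-fold higher at KO 90 min. Among genes with an unadjusted p below 0.05, none of the largest increases passed over all arrays without a block. They were those of Nlrc5, a regulator of MHC class I genes, at 0.99 ± 0.35, and Gtpbp2 at 0.84 ± 0.32, which passed with the replicate block. Next were Agrn, the matrix proteoglycan agrin gene, at 0.83 ± 0.32, and Tmem63b at 0.82 ± 0.23. Among 14 antigen presentation genes 0 had a lower signal, against 46.5% of all genes tested. Of the 14, 0 passed in limma (0 at an unadjusted p below 0.05), with a median of 0.30, or 0.20 without the 2 libraries. Genes of glycolysis (median 0.21), lysosomes (0.14), the respiratory chain (0.12) and ribosomal proteins (0.07) had 0 members past the threshold in limma (0, 0, 4 and 0 higher at an unadjusted p below 0.05). The 4 were among 79 respiratory chain genes, against 160 higher of all 10258 genes tested. Centring the arrays on ribosomal protein genes or on housekeeping genes lowers every KO change by 0.07 or 0.06, so the sign of medians of that size depends on the scale.

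**Figure D5:**
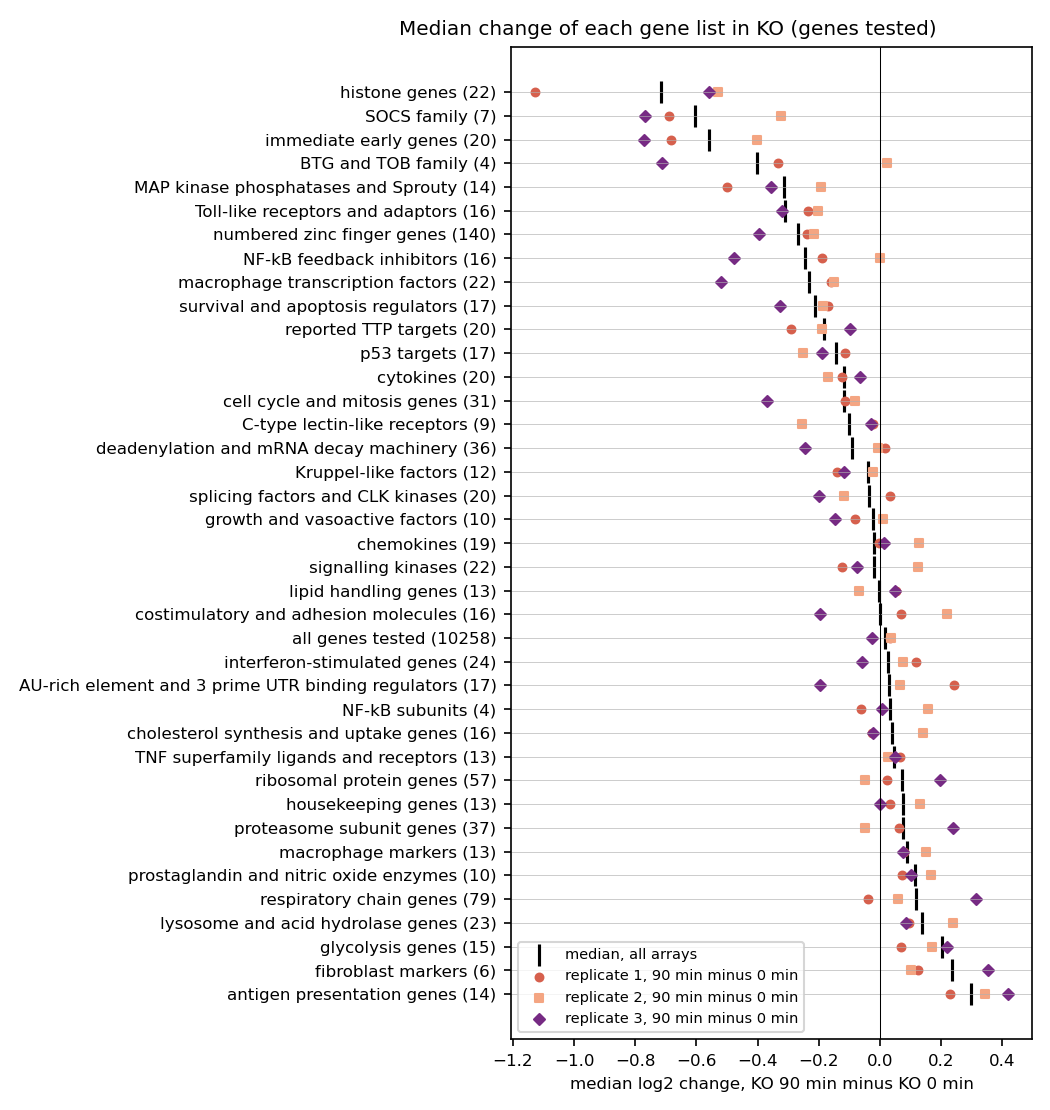
Median log2 change, KO 90 min minus KO 0 min (horizontal axis), of each gene list with the number of genes tested in brackets, as a bar for all arrays and as symbols for the 3 same-numbered pairs. Histone genes, the SOCS family and immediate early genes have the lowest medians (-0.71, -0.60 and -0.56), and antigen presentation genes the highest (0.30).

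The count of 23 depended on single arrays. Without KO 90 min replicates 1, 2 and 3, in turn, 3, 63 and 2 genes fell, and without KO 0 min replicates 1, 2 and 3 it was 6, 7 and 3. Without KO 45 min replicate 2 it was 32, and without WT 0 min replicates 2 and 3 it was 13 and 39. Without WT 45 min replicates 1 and 2 it was 13 and 12, and without WT 90 min replicate 1 it was 13. The KO 45 min and WT arrays enter through the shared estimate of the spread. Dusp2 and Clec2d passed in all 18 omissions, whereas Socs3 lost its call in 12, Plk2 and Gdap10 in 9, Tiparp, Clp1 and Zfp36 in 14, Nanp in 15, C9orf72 and Ifrd1 in 13, and the other 12 genes outside these in 3 to 9. Without WT 90 min replicate 2, 1 gene rose. Within replicates 1 and 2, whose sample numbers form a run of their own, 22 genes fell and 12 of the 23 were among them.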

How the data were processed

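Each sample was hybridised to 1 array of the Affymetrix Mouse Gene ST type. The deposited values are intensities that the authors made with RMA in Affymetrix Expression Console, per the submitters' processing notes, and they are on a linear scale as judged from their range; for both tools the version is not given in the sources used. The log2 of each intensity was taken. Of 25138 rows, 21039 had 1 symbol in the platform annotation, and the brightest row per symbol gave 19454 genes; 10258 had a group mean at or above the median row mean of the rows with 1 symbol, a log2 intensity of 3.03, and were tested. The array number limits the precision.

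Group means were fitted over all 18 arrays with limma 3.58.1 in R 4.3.3, variances were moderated by empirical Bayes, and p-values were adjusted by Benjamini-Hochberg at 0.05; errors are SE of the fit unless SD is stated. On simulated data with 10258 genes this recovered 70% of genes lowered by a log2 of 1 and 100% of those lowered by 2 or 3 for KO 90 min against KO 0 min, and 9.52% of its calls were false. The simulated noise was independent between genes and arrays, with no split between replicates and no background floor. These rates therefore need not hold for the real arrays. Replicates may be technical, so p-values measure only the spread between these samples. No 2 libraries were identical. Same-numbered KO arrays at 90 and 0 min deviated together from their group means (correlations 0.413, 0.505 and 0.694), and WT arrays gave 0.424, -0.287 and -0.0236. On the first axis of a principal component analysis (28.99% of the variance) all replicate 3 arrays were positive and all replicate 1 and 2 arrays negative. The correlations cannot tell pairing by number from this split. The replicate block is given as an alternative beside results it changes. The sample numbers in the titles set replicate 3 of each group apart from replicates 1 and 2, and this was tried as a block and within replicates 1 and 2.

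The genes, lists and alternatives were chosen with earlier results of these data known. Named genes were Zfp36, those past the threshold, the 20 largest added by the replicate block, the 10 largest increases at an unadjusted p below 0.05, the 4 largest changes in each list and the reported TTP targets. The fit without both later KO libraries of replicate 2 was added after their order was seen.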

Additional observations from a re-analysis of the deposited data

Results flagged for a closer look

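The change over 90 min differed between KO and WT past the threshold for Tnf and Cxcl2, by a test of the difference itself. Tnf had a log2 change of -0.45 ± 0.18 (SE, n = 3 arrays per group) in KO and -4.24 ± 0.18 in WT, a difference of 3.79 (95% interval 3.25 to 4.33, limma adjusted p 3.76e-07), and 3.65 without the KO 45 and 90 min libraries of replicate 2, where it also passed. Cxcl2 had 0.11 ± 0.23 in KO and -1.98 ± 0.23 in WT, a difference of 2.09 (1.4 to 2.79, limma adjusted p 0.0375), and 2.00 without those libraries, where it did not pass (adjusted p 0.215). Tnf passed in all 33 settings run and Cxcl2 in 14.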

How the results depend on the processing

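The count in KO, 23 lower and 0 higher, became 56 and 1 with the replicate block. With the block of title numbers it was 60 and 1. It was 71 and 0 without the KO 45 and 90 min libraries of replicate 2. Without the filter on low signals 12 fell, and with centring on housekeeping genes 44 fell. Array weights gene by gene gave 85 and 2. Array weights by REML, which did not converge, gave 105 and 7 in KO and 998 genes in both directions for the decay difference, and gene-by-gene weights were made the planned setting after both sets of counts were seen. With the 6 KO arrays alone the count was 1 lower, and 286 and 57 with the replicate block. The decay difference between KO and WT passed for 2 higher and 0 lower genes, and for 5 and 2 within replicates 1 and 2, 1 higher without the filter, with centring on ribosomal protein or housekeeping genes or without the 2 libraries, and 8 and 1 with gene-by-gene weights. Omitting single arrays gave 2 to 63 lower and 0 to 1 higher in KO, and 1 to 2 higher and 0 to 1 lower for the difference. Cxcl1 reversed in KO to 0.069 without the 2 libraries and ranged from -0.53 to 0.11 under omissions. The cause of these shifts was not tested beyond the arrays or genes each setting removes. Background limits the falls that end near or below the signal limit.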
